A study of Mus musculus with 6 samples.

Results

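Mature neutrophils of the injured rotator cuff enthesis, where the tendon inserts into bone, were taken as the cells with UMIs of mature neutrophil receptor genes and few UMIs of secondary granule genes. They were chosen on measured values. A barcode with at least 500 unique molecular identifiers (UMIs), at least 200 genes and at most 10% mitochondrial UMIs had to carry at least 3 UMIs of Csf3r, Cxcr2, Il1r2 and G0s2 together. Ngp, Camp and Ltf had to make up less than 0.5% of its UMIs, as had Col1a1, Col1a2 and Col3a1, with no UMI of Csf1r and at most 1 of C1qa, C1qb and C1qc. The rule admitted 7846 of 98827 cells. Since these genes chose the cells, their own values are given below as a description.

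The cells came from 6 droplet-based 3′ single-cell RNA libraries, 3 from wild-type C57BL/6 mice and 3 from mice with a constitutive deletion of Nlrp3 (Nlrp3-/-). All mice were 12 to 14 weeks old and had undergone a supraspinatus tendon tear with repair, and entheses were pooled at 7 days post injury. No uninjured sample was analysed here. The library was the replicate. How many mice were pooled in each library was not clear from the sources used here, so p-values measure only the spread between these libraries. The titles of all 3 knockout libraries name Nlrp3, whereas the genotype labels of replicates 2 and 3 name Nlrp4 and Nlrp5. The female transcript Xist and the Y-linked genes Ddx3y, Eif2s3y, Kdm5d and Uty separated the groups completely, so the effect of genotype and that of sex cannot be told apart in any comparison below.

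Neutrophils are short-lived granulocytes of the bone marrow whose granules are filled in order: primary granules with Elane, Mpo and Prtn3 in early precursors, secondary granules with Ngp, Camp and Ltf in later ones, and gelatinase granules containing Mmp9 as they mature. Mature neutrophils enter blood and wounds through the receptor for CXC chemokines, Cxcr2, and respond to granulocyte colony-stimulating factor through Csf3r. In wounds they release IL-1β and chemokines. NLRP3 is the sensor of an inflammasome that, with the adaptor Pycard and the protease Casp1, processes pro-IL-1β and opens gasdermin D pores.

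Total depth ranged from 97042713 to 134901999 UMIs per library. The wild-type libraries held 2137, 2851 and 1067 mature neutrophils among 13950, 17569 and 10204 cells. The Nlrp3-/- libraries held 699, 601 and 491 among 31157, 12151 and 13796 cells. Median depth of these neutrophils was 1195 to 1693 UMIs in wild type and 1376 to 1957 UMIs in Nlrp3-/-. Only 18 of them shared a barcode with a mature neutrophil of another library. Nlrp3-/- replicate 1 stood apart from the rest. Mesenchymal barcodes were those with at least 2% collagen UMIs, at least 1000 UMIs in all and no UMI of Csf3r, Cxcr2, Il1r2 or G0s2. Among those of this library, 29.6% carried an Il1b UMI and 53.6% a Cxcl2 UMI after thinning to 1000 UMIs, against 0.925% to 2.76% and 3.27% to 13.7% in the other 5 libraries. They had a median of 1836.5 UMIs, compared with 13043 to 16690 elsewhere. Barcodes with fewer UMIs meet the last condition more easily, and the part of this in the contrast was not tested. Results that rest on this library are therefore also given without it.

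The label was checked against the cells themselves. Leiden clustering of the 7846 barcodes gave 13 clusters, of which 7 were led by genes of earlier or other cells. The remaining 6 (clusters 1 to 6) are called neutrophil-led because none of their 50 leading genes belonged to a list of primary granules or of another lineage. No neutrophil list was scored for this name. The 6 neutrophil-led clusters held 6712 barcodes, 85.5% of all, but only 39.1% of the UMIs, because the other barcodes were far deeper. Csf3r, Cxcr2, Il1r2 and G0s2 together reached 5916 to 9013 CPM in these 6 clusters, CPM being the UMIs of a gene per 1000000 UMIs of the summed barcodes. These genes chose the cells, so their CPM describes the clusters and is no check of the label. The median count of their UMIs was 7 to 9 in clusters 1 to 6 and 5 in clusters 7 and 8. Median depth was 1012 to 1592 UMIs in clusters 1 to 6 and 5769 UMIs in cluster 7. Cluster 8, with 303 barcodes and a median of 22329 UMIs, was led by the primary granule proteases Elane, Ctsg and Prtn3 and by the peroxidase Mpo, and its 4 receptor genes reached only 284 CPM. Cluster 7 (337 barcodes) was led by Prtn3, Ctsg and the monocyte genes Ms4a6c and F13a1 (801 CPM of the 4 receptor genes). Clusters 9 to 13 were led by endothelial genes (Fabp4, Col4a1; 149 barcodes), MHC class II genes with Cd209a (138), B cell genes (Igkc, Cd79a; 131), T cell genes (Il17a, Cd3g; 59) and globins (17). Thus 14.5% of the barcodes the rule admitted did not resemble mature neutrophils. A deep cell of another kind can reach 3 UMIs of the 4 genes. The doublet score of Scrublet marked 160 of 337, 90 of 149, 101 of 131 and 37 of 59 barcodes of clusters 7, 9, 11 and 12. How these barcodes came to pass the rule was not tested.

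The share of neutrophil-led barcodes was 89.1%, 87.6% and 85.0% in wild type and 85.7%, 67.7% and 80.9% in Nlrp3-/-, and the groups overlapped. Their share of the UMIs was 45.6%, 50.8% and 38.2% against 50.4%, 14.4% and 31.3%. In Nlrp3-/- replicate 2, cluster 8 alone held 66.1% of the UMIs summed for the genotype test. Levels are therefore given mostly over the neutrophil-led barcodes, a selection made after the clusters were seen and hence mostly described without a test. The main tests were run on the sums over all admitted barcodes, and the few tests on neutrophil-led barcodes are additions. Among the whole lists of other cell types, the 10 macrophage genes summed to 252 to 391 CPM in wild-type and 250 to 608 CPM in Nlrp3-/- neutrophil-led barcodes. Mesenchymal genes summed to 708 to 1469 and 949 to 2082 CPM, and endothelial genes to 16.3 to 23.6 and 19.97 to 28.6 CPM in wild-type and Nlrp3-/- barcodes. Csf1r, which defines macrophages, was at 0 by the rule, and Siglech and, in 4 libraries, Cd209a were at 0. Monocyte genes summed to 304 to 414 and 172 to 760 CPM, and dendritic cell genes to 204 to 453 and 123 to 196 CPM, the latter without overlap. Of the 3 monocyte genes at 20 CPM or more, 1 lay lower, Chil3, which is also a granule gene and is described below. Of the 4 dendritic cell genes at 20 CPM or more, 1 lay lower, Cd74 (158, 295 and 126 against 108, 79.9 and 93.3 CPM), and of the macrophage genes 1 of 4 at 20 CPM or more lay higher, C1qa (12.6, 17.8 and 11.6 against 27.0, 23.0 and 30.5 CPM), which the rule had limited. Over all genes at 20 CPM or more in these barcodes, 6.7% lay higher and 6.49% lower without overlap. No gene of the mesenchymal, erythroid, B cell or cell division lists lay apart at 20 CPM or more. The endothelial, T cell, eosinophil and mast cell lists had no gene at that level. Without Nlrp3-/- replicate 1, 5 of 9 mesenchymal genes lay higher and 0 lower, with a median log2 ratio of 0.75, beside 0.11 for all genes. In that setting 2 of 3 monocyte genes lay higher and 1 lower, 1 of 4 macrophage genes higher and 1 of 4 dendritic cell genes lower. Over all genes, 27% then lay higher and 12.1% lower. The part of these other cells' transcripts in the results was not tested. The 20 neutrophil genes that the rule did not use summed to 166600 to 233200 CPM in wild type and 151200 to 227400 CPM in Nlrp3-/-, and 2 of them lay higher without overlap, Il1f9, an IL-36 family cytokine (342, 352 and 408 against 586, 547 and 463 CPM), and the cystatin gene Stfa2l1.

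**Figure D1:**
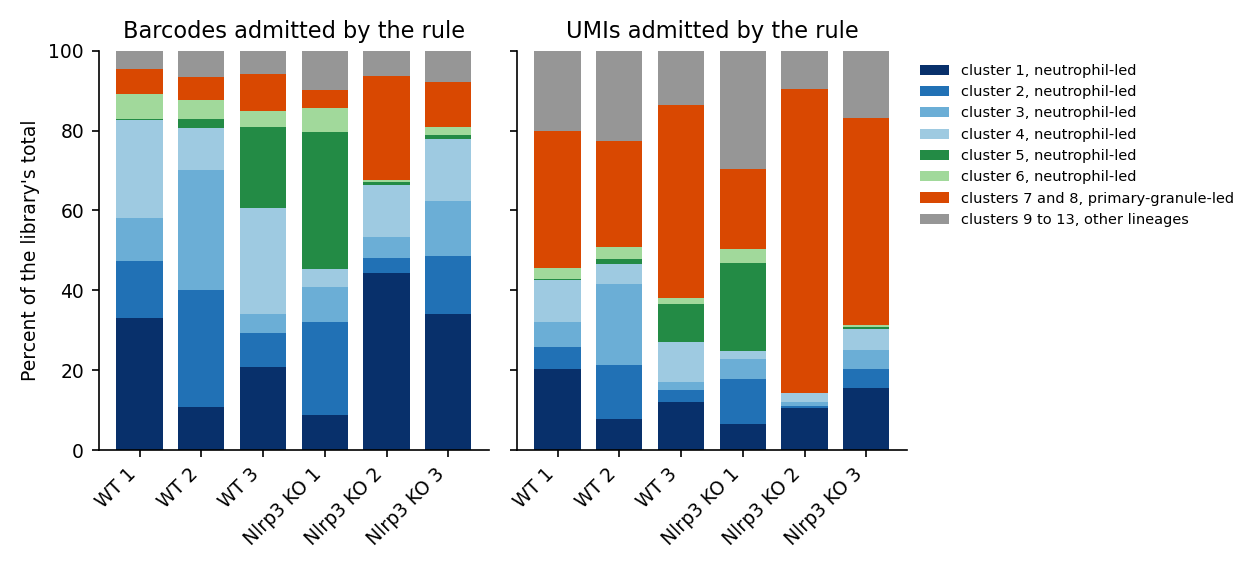
Composition of the barcodes admitted as mature neutrophils in each of the 3 wild-type (WT) and 3 Nlrp3 knockout (KO) libraries, as percent of barcodes (left) and of UMIs (right). Blue and green segments are the 6 neutrophil-led clusters, orange the primary-granule-led clusters 7 and 8 and grey clusters 9 to 13; the neutrophil-led clusters hold 67.7% to 89.1% of the barcodes but 14.4% to 50.8% of the UMIs.

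At the edges of the rule the cells graded into their neighbours. Between 119 and 360 barcodes per library met every other condition with 2 UMIs of the receptor genes, and between 89 and 329 had exactly 3. Median S100a8 and S100a9 content was 0.0753% to 7.23% of UMIs just outside and 1.64% to 11.9% just inside. At the granule limit, 6 to 79 barcodes lay at 0.4% to 0.5% of UMIs and 7 to 53 at 0.5% to 0.6%, with nearly equal S100a8 and S100a9 content (21.5% to 27.8% and 21.7% to 29.6%).

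The neutrophil-led barcodes ran from cells rich in late granule transcripts to cells rich in cytokine transcripts. Cluster sizes, leading genes and S100a8 and S100a9 shares are those of all 6 libraries, and CPM values by cluster are those of wild type. Cluster 1 (1730 barcodes) was led by Adpgk, Retnlg, Cd177, Ly6g and Mmp8. Retnlg encodes a resistin-like secreted protein of neutrophils, Cd177 and Ly6g are surface proteins of the lineage and Mmp8 is neutrophil collagenase. S100a8 and S100a9, the subunits of calprotectin, took a median of 24.1% of UMIs in these cells. Averaged over the wild-type libraries, Retnlg reached 52570 CPM in cluster 1, 12790 CPM in cluster 4 and 933 to 3568 CPM in clusters 2, 3, 5 and 6. Mmp8 followed the same order, with 1889 CPM in cluster 1, 552 CPM in cluster 4 and 71.0 to 221 CPM elsewhere. Cluster 4 (1299 barcodes) was led by Hacd4, Retnlg, Itga4, the α4 integrin subunit, and Ccl6, a CC chemokine. These are descriptions, since the same genes formed the clusters.

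Cluster 2 (1489 barcodes) was led by Igfbp6, Lrg1, Wfdc17 and Ifitm1, with Il1r2, the decoy receptor for IL-1, at 2153 CPM compared with 588 CPM in cluster 1. Cluster 3 (1300 barcodes) was led by the chemokine Cxcl1, the IL-23 subunit Il23a, Il1a, Igfbp6 and Tnf. Tnf reached 1812 CPM there, 452 CPM in cluster 2 and 85.6 CPM in cluster 1. Cluster 5 (535 barcodes) was led by Ero1l, Abcc1, Csf3, which encodes the ligand of Csf3r, Cd274, which encodes the immune checkpoint ligand PD-L1, and Traf1. It also had the highest means of Cxcl2 (73760 CPM), Ccl3 (10650 CPM) and Il1rn, the IL-1 receptor antagonist (4053 CPM). Wild-type replicate 3 and Nlrp3-/- replicate 1 supplied 215 and 240 of its 535 barcodes, and 5 barcodes came from wild-type replicate 1, so it may be a state of these libraries and is not compared between genotypes.

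Cluster 6 (359 barcodes) was led by genes that interferon induces: Cxcl10, Ifit1, Ifit3, Ifit3b, Rsad2, Ifi47, Cmpk2 and Slfn5. Ifit1 reached 835, 958 and 1577 CPM in this cluster of the wild-type libraries and at most 72.5 CPM in each wild-type library of the other clusters. The promoters of the leading genes were searched for the core of the interferon-stimulated response element (GAAA, any 2 bases, GAAA) on both strands of the 250 bases before the start site (RefSeq, GRCm38.p6). It was found in 7 of the 11 leading genes of cluster 6 that had a promoter entry (63.6%), in none of the leading genes of clusters 1 to 5 and in 978 of 32851 promoters in all (2.98%). Of these 7, Ifit3 and Ifit3b had identical windows around the match, so they do not count as separate sequences. The κB core (GGGA, any 2 bases, TTCC) was found in Cxcl10 and Ifit2 of cluster 6, Cxcl1 of cluster 3 and Cxcl3 of cluster 5, and in 1.21% of all promoters. The 2 motifs share no full match, although both were found in the Cxcl10 promoter. The windows are shown because the response element pattern, read forward or in reverse complement and with its 2 free bases, recurs before genes that lead cluster 6, and the κB pattern stands before a gene of each of clusters 3 and 5. Each is written 5′ to 3′ on the strand of its gene with the match in capitals. They cover chr19:34640760-34640819 (Ifit1, plus strand), chr19:34583348-34583407 (Ifit3, plus strand), chr12:26456538-26456597 (Rsad2, minus strand), chr5:92349068-92349127 (Cxcl10, minus strand) and, for the κB core, chr5:90891149-90891208 (Cxcl1, plus strand) and chr5:90786003-90786062 (Cxcl3, plus strand).
Ifit1: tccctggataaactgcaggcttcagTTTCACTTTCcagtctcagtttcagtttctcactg
Ifit3: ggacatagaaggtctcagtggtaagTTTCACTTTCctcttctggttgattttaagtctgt
Rsad2: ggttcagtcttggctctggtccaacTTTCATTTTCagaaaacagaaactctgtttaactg
Cxcl10: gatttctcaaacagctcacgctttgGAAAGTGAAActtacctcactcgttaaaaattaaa
Cxcl1: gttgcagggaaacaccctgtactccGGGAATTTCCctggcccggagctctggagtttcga
Cxcl3: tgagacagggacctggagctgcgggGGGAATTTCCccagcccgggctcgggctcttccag
Such a match describes the sequence and does not show that a factor was bound there.

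**Figure D2:**
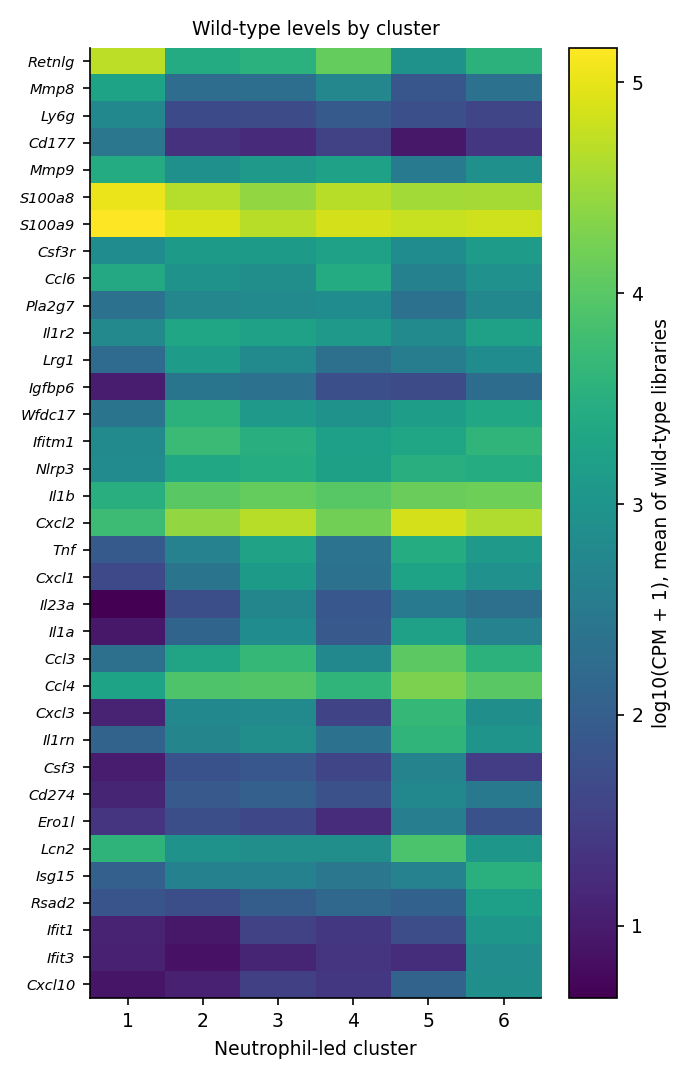
Mean level over the wild-type libraries (log10 of CPM + 1, colour) of 35 genes in the 6 neutrophil-led clusters; means use libraries with at least 20 barcodes in the cluster. Retnlg and Mmp8 are highest in cluster 1, Cxcl2, Ccl3 and Il1rn in cluster 5 and Ifit1, Rsad2 and Cxcl10 in cluster 6.

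The libraries differed widely in the mix of these clusters, also within a genotype. Cluster 1 made up 37.2%, 12.2% and 24.6% of the neutrophil-led barcodes in wild type and 10.4%, 65.4% and 42.1% in Nlrp3-/-. Cluster 3 made up 12.1%, 34.4% and 5.62% against 10.0%, 7.62% and 16.9%. Cluster 6 made up 6.83%, 5.24% and 4.85% against 7.01%, 0.737% and 2.27%. With all libraries the groups overlapped for each of the 6 clusters. Without Nlrp3-/- replicate 1, cluster 1 lay higher and cluster 6 lower in the knockout libraries without overlap, and the other clusters still overlapped. The part of this mix in the gene counts given below without that library was not tested. Nlrp3-/- replicate 2 thus consisted largely of Retnlg-rich cells, whereas 40.1% of replicate 1 lay in cluster 5.

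Nlrp3 (ENSMUSG00000032691; GRCm38 chr11:59541568-59566956, plus strand) was readily detected in wild-type mature neutrophils. Its level was 1218, 2653 and 2027 CPM in the neutrophil-led barcodes of the 3 libraries, and 614, 1484 and 858 CPM over all admitted barcodes. Over the granule-rich neutrophils of the same libraries, which still express Ngp, Camp and Ltf, it was 81.9, 241 and 96.7 CPM. Macrophages were taken as cells with a Csf1r UMI, at least 3 C1q UMIs and fewer than 3 UMIs of the receptor genes. Over these it was 70.6, 79.6 and 108 CPM. Each wild-type library thus had a higher Nlrp3 level in mature neutrophils than in granule-rich neutrophils or in macrophages so defined. Macrophages and monocytes that lacked Csf1r UMIs or had fewer C1q UMIs were not compared. The mature and granule-rich classes were chosen by granule genes that move with maturation, so this order is a description.

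Nlrp3 also varied among the wild-type mature neutrophils. It was 646, 740 and 681 CPM in cluster 1 and 2212, 3303 and 2901 CPM in cluster 3, and in every wild-type library cluster 1 was the lowest of the clusters with at least 20 barcodes. Il1b, the gene of pro-IL-1β, was likewise lowest in cluster 1 (3132 CPM, mean of libraries) and lay between 9658 and 14870 CPM in clusters 2 to 6. Neutrophil-led cells with at least 1000 UMIs were thinned to 1000 UMIs, which left out 622, 959 and 53 shallower wild-type cells. Of the thinned wild-type cells, 56.4%, 78.2% and 69.6% had an Nlrp3 UMI, against 0% to 1.06% of thinned mesenchymal barcodes. Unthinned and with the shallower cells, the share was 62.5%, 81.9% and 75.8%. Median depths before thinning were 1116.5 to 1559 UMIs in neutrophil-led and 13776.5 to 16690 UMIs in mesenchymal barcodes of wild type. The mesenchymal barcodes were chosen to hold no UMI of the receptor genes, so they may hold less neutrophil RNA than other barcodes of that kind. Il1b and Nlrp3 were detected in the same cell in 51.5%, 74.9% and 66.7% of the thinned wild-type cells. As Il1b itself was detected in 87.0%, 92.6% and 93.4% of these cells, the joint shares do not show a link between the 2 genes.

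In the Nlrp3-/- libraries no mature neutrophil held an Nlrp3 UMI. With 16325 UMIs over the wild-type and 0 over the knockout members, its level was reduced at least 699-fold, taking 3 counts per knockout library as the floor, and at least 426-fold in the neutrophil-led barcodes. The targeted gene therefore followed the titles in all 3 libraries, including those labelled Nlrp4 and Nlrp5.

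The first comparison asked whether loss of Nlrp3 was accompanied by a change in the number of mature neutrophils. They made up 15.3%, 16.2% and 10.5% of the cells in wild type and 2.24%, 4.95% and 3.56% in Nlrp3-/- libraries. The means were 14 ± 3.10% and 3.58 ± 1.35% (SD, n = 3), 3.91-fold apart, and the lowest wild-type library lay above the highest knockout library. In barcodes of at most 100 UMIs, which hold free RNA, the 4 receptor genes also differed without overlap (590, 649 and 674 CPM against 249, 317 and 332 CPM), and the part of this background in the share was not tested. The exact two-sided permutation test gave p = 0.1, which is the smallest value that 3 libraries against 3 allow. Counting neutrophil-led barcodes only, the shares were 13.6%, 14.2% and 8.89% against 1.92%, 3.35% and 2.88%. Nlrp3-/- replicate 1, whose 31157 cells form an unusually large denominator, had the lowest share; without it the mean of the knockout libraries was 4.25% and the groups remained apart.

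A share with only the neutrophil classes in its denominator is that of mature cells among neutrophils. It counts every barcode the rule admitted, and the granule-rich class was not checked by clustering. Mature neutrophils made up 44.0%, 63.8% and 37.7% of mature plus granule-rich neutrophils in wild type and 28.2%, 19.9% and 20.3% in Nlrp3-/-. The means were 48.5 ± 13.6% and 22.8 ± 4.65% (SD, n = 3), a 2.13-fold difference with an exact permutation p of 0.1. Among neutrophil-led barcodes alone the shares were 41.2%, 60.7% and 34.0% against 25.2%, 14.4% and 17.1%. In numbers of captured barcodes the granule-rich neutrophils overlapped between the groups (1617 to 2718 and 1782 to 2413), while mature neutrophils did not (1067 to 2851 and 491 to 699).

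**Figure D3:**
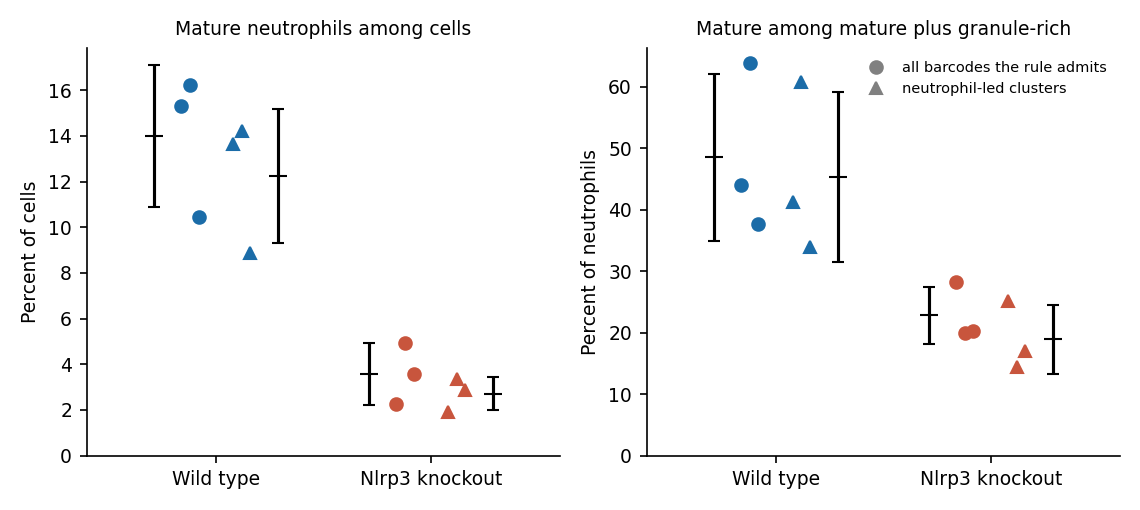
Percent of mature neutrophils among all cells (left) and among mature plus granule-rich neutrophils (right) per library, for all admitted barcodes (circles) and for neutrophil-led clusters (triangles). Horizontal marks and bars are means and SDs of 3 libraries; each wild-type library lies above every Nlrp3 knockout library in both panels.

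The next comparison tested every gene between genotypes on the UMIs summed over all admitted barcodes of each library. Clusters 7 to 13, which did not resemble mature neutrophils, held 54.4%, 49.2% and 61.8% of these UMIs in wild type and 49.6%, 85.6% and 68.7% in Nlrp3-/-. The calls are therefore those of the admitted barcodes as a whole. By edgeR's quasi-likelihood test with Benjamini-Hochberg adjustment, 9 of 11196 genes (0.0804%) passed at 0.05: 3 that rose (0.0268%) and 6 that fell (0.0536%) in the knockout. An unadjusted p under 0.05 was reached by 766 genes. The calls depended on single libraries, with 0 genes called without Nlrp3-/- replicate 3, 2 without wild-type replicate 3, 4 without wild-type replicate 1 and 5 without wild-type replicate 2. Apart from Nlrp3 itself (edgeR adjusted p = 0.0118), the called genes were sex-linked or belonged to no pathway examined here. Xist, which coats the inactive X chromosome, rose (edgeR adjusted p = 0.00190), with 548, 870 and 652 CPM in Nlrp3-/- and 0 UMIs in wild type. In the neutrophil-led barcodes of Nlrp3-/-, the 6 listed sex-linked genes together summed to only 163, 180 and 181 CPM. The antisense gene of Xist, Tsix, also passed, but reads of overlapping antisense genes cannot be told apart unless counting used the strand. Ddx3y, a Y-linked RNA helicase, had 49.6, 98.0 and 67.7 CPM in wild type and 0 UMIs in Nlrp3-/- (edgeR adjusted p = 0.0153).

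Tpm3-rs7 (chr14:113314608-113316754) fell by 5.83 ± 0.44 on the log2 scale (SE; edgeR adjusted p = 0.00735), from 146, 74.2 and 198 CPM to 1.78, 3.31 and 2.98 CPM. It is a copy related to the tropomyosin gene Tpm3, and counts may be split between such copies. The other called genes, which fall outside the rule for naming, were the predicted gene Gm8797 (higher), Gm42031, Gm43305 and the keratin gene Krt83 (all lower). In the neutrophil-led barcodes the mitochondrial assembly factor gene Cmc2 (chr8:116888685-116921455), named after its values were seen, had 108, 96.7 and 88.0 CPM in wild type and 4.70, 4.61 and 5.71 CPM in Nlrp3-/-. In the sums over all admitted barcodes, its log2 fold change was -1.26 ± 0.21 (SE; edgeR adjusted p = 0.186). DESeq2 called it in these sums (adjusted p = 0.00081), as did edgeR after thinning each cell to 1000 UMIs (adjusted p = 0.0116). Blvrb, a biliverdin and flavin reductase gene, had 34.2, 27.0 and 27.0 CPM against 166, 137 and 103 CPM in the neutrophil-led barcodes, again without overlap.

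Few called genes do not show that the rest did not differ. Of 3729 genes with at least 20 CPM in the neutrophil-led barcodes, 6.7% lay higher and 6.49% lower in all Nlrp3-/- than in all wild-type libraries, 13.2% in either direction. The median log2 ratio over these genes was 0.05. Counts for the lists below are read against these shares.

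Among the inflammasome and pyroptosis genes, Nlrp3 was the only 1 of 18 tested genes to pass. Of its 12 members at 20 CPM or more in the neutrophil-led barcodes, 1 was higher and 3 were lower without overlap. Pycard, the adaptor ASC, was the higher one, with 29.8, 20.9 and 28.9 CPM in wild type and 39.98, 44.6 and 43.8 CPM in Nlrp3-/-. Casp1, the protease, had 17.1, 11.97 and 14.8 against 19.99, 24.6 and 26.7 CPM, also without overlap but below 20 CPM in the mean. Ninj1, which mediates membrane rupture, had 486, 601 and 388 against 370, 187 and 343 CPM, and Gsdmd, the pore-forming gasdermin, had 41.2, 31.6 and 32.1 against 29.4, 30.7 and 30.5 CPM. Over all admitted barcodes none of these 4 genes passed, with edgeR adjusted p between 0.708 and 0.969.

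The remaining sensors and effectors at 20 CPM or more overlapped between genotypes. Txnip, a redox protein that binds NLRP3, had 659 to 898 CPM in wild type and 500 to 855 CPM in Nlrp3-/-. Casp4, the noncanonical caspase, ranged from 43.6 to 143 and from 49.5 to 189 CPM, and Gsdme from 33.4 to 54.6 and from 27.0 to 92.2 CPM. Aim2, the sensor of cytosolic DNA, and Mefv, which encodes pyrin, ranged over 39.8 to 53.7 and 43.6 to 114 CPM in wild type and over 23.0 to 47.6 and 24.6 to 138 CPM in Nlrp3-/-. Nek7, the kinase that licenses NLRP3, had 12.9 to 30.2 and 15.3 to 43.0 CPM, Naip2 15.7 to 31.0 and 14.1 to 40 CPM, and Il18 19.2 to 27.9 and 9.22 to 21.2 CPM. P2rx7, the ATP-gated channel upstream of NLRP3, reached at most 4.50 CPM in wild type and 11.8 CPM in Nlrp3-/-, and Panx1, Nlrc4 and Nlrp1b stayed below 4 CPM in each library. Naip5 had 6.52, 6.75 and 14.1 CPM in wild type and 1.18, 4.61 and 5.71 CPM in Nlrp3-/-.

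In the neutrophil-led barcodes Il1b had 7378, 9801 and 9525 CPM in wild type and 16710, 7987 and 10980 CPM in Nlrp3-/-, so the groups overlapped. Over all admitted barcodes the log2 fold change was 0.04 ± 0.67 (SE; edgeR adjusted p = 0.993), and without Nlrp3-/- replicate 1 it was -1.03 (edgeR adjusted p = 0.322). In the neutrophil-led barcodes the groups also overlapped without that library. The neutrophil mix of that library and of replicate 2 differed most, as described above.

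Of the 11 IL-1 and IL-18 receptor and decoy genes none passed the edgeR test, and 1 of the 6 at 20 CPM or more was higher without overlap. That was Il18rap, a subunit of the IL-18 receptor, with 124, 120 and 142 CPM in wild type and 165, 217 and 164 CPM in Nlrp3-/-. Its partner Il18r1 had 10.6, 7.37 and 9.63 against 11.8, 16.9 and 15.2 CPM. Il1r2, which chose the cells, had 1316, 1879 and 668 against 723, 538 and 825 CPM. Il1rn had 242, 608 and 1305 CPM in wild type and 1706, 269 and 322 CPM in Nlrp3-/-, and its highest value came from replicate 1. The accessory chain Il1rap ranged from 111 to 216 and from 108 to 333 CPM, the adaptor Myd88 from 94.2 to 132 and from 104 to 133 CPM, and the inhibitory kinase Irak3 from 44.0 to 165 and from 36.9 to 144 CPM. The signalling receptor Il1r1 reached at most 9.52 CPM in any library, Il1rl1 9.41 CPM and Il18bp 11.0 CPM. Sigirr had 0 UMIs in the neutrophil-led barcodes of all 6 libraries.

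Chemokine and cytokine transcripts were abundant, and none of the 23 listed genes passed. Cxcl2, a ligand of Cxcr2, had 19270, 38320 and 25900 CPM in wild type and 51840, 11060 and 18320 CPM in Nlrp3-/-. Ccl4, which attracts monocytes and T cells, had 4288, 7808 and 8803 against 19310, 2943 and 4889 CPM. In both genes Nlrp3-/- replicate 1 was the highest library and replicate 2 the lowest. Cxcl1, a further ligand of Cxcr2, was the 1 of 19 list members at 20 CPM or more whose groups did not overlap, with 310, 968 and 431 CPM in wild type and 269, 90.6 and 297 CPM in Nlrp3-/-. Without Nlrp3-/- replicate 1, 6 of the 19 lay lower and none higher, against 12.1% lower and 27% higher of all genes. The median log2 fold change of the list over all admitted barcodes was -0.14, compared with 0.03 for all genes tested; without Nlrp3-/- replicate 1 it was -1.75. The sign turned in other settings, with 0.24 without Nlrp3-/- replicate 2, 0.01 without Nlrp3-/- replicate 3, 0.05 after thinning each cell to 1000 UMIs and 0.15 in the neutrophil-led barcodes.

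**Figure D4:**
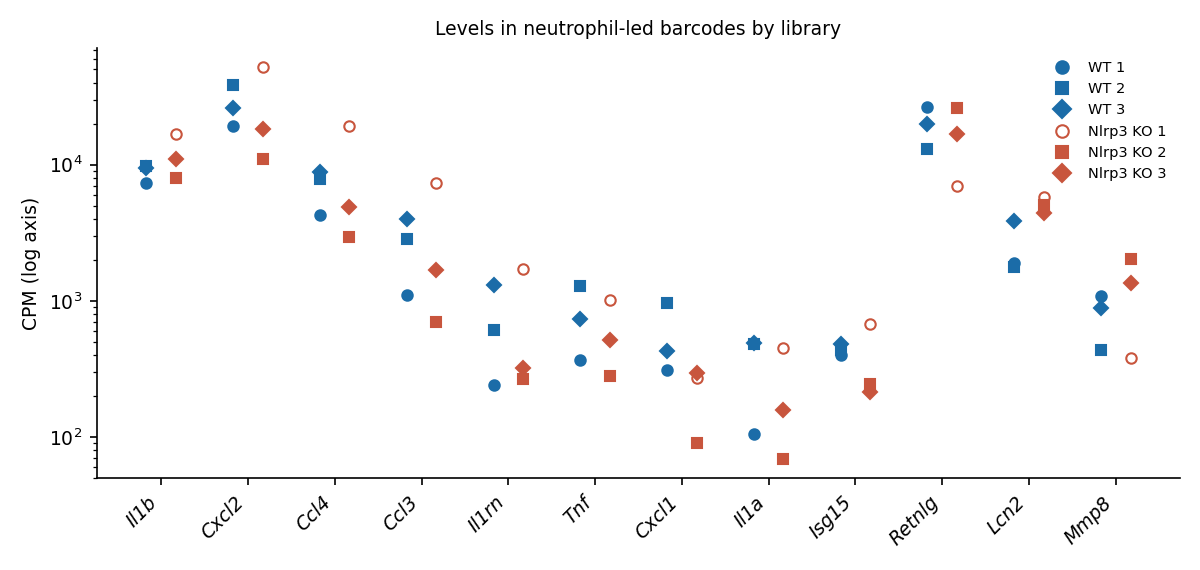
Level (CPM, log axis) of 12 genes in the neutrophil-led barcodes of each library, wild type (WT) in blue and Nlrp3 knockout (KO) in red, with the open circle marking knockout replicate 1. For Ccl3, Ccl4, Cxcl2 and Il1rn the open circle lies highest and the other knockout libraries among or below wild type; Lcn2 is higher and Cxcl1 lower in every knockout library.

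Of the secondary granule genes, the 7 that the rule did not use summed to 3764, 2617 and 5508 CPM in wild type and 6600, 8467 and 6880 CPM in Nlrp3-/- neutrophil-led barcodes, without overlap, whereas their sums over all admitted barcodes overlapped. Lcn2 was the largest part of the neutrophil-led sum in each library, and the rest of that sum overlapped between the groups. Lcn2 was also among the leading genes of cluster 5, which held 40.1% of the neutrophil-led barcodes of Nlrp3-/- replicate 1. The median log2 ratio in neutrophil-led barcodes was 0.65 for the 7 genes and 0.39 for those of tertiary granules and proteases, beside 0.05 for all genes. Over all admitted barcodes the median log2 fold changes were 0.01 and -0.34. Lcn2, which sequesters bacterial siderophores, had 1900, 1768 and 3871 CPM in wild type and 5779, 5090 and 4442 CPM in Nlrp3-/- neutrophil-led barcodes, without overlap, whereas over all admitted barcodes its log2 fold change was 0.41 ± 0.52 (SE; edgeR adjusted p = 0.867). Within clusters 1 and 4 Lcn2 was also higher without overlap (3350, 4619 and 3540 against 6729, 6300 and 7358 CPM in cluster 1), but in cluster 2 (836, 1335 and 636 against 1755, 555 and 1801 CPM) and cluster 3 the groups overlapped. None of the 6 secondary granule genes that could be compared lay apart in all 4 clusters, but these 6 included Ngp, Camp and Ltf, which the rule had limited. Chil3, a chitinase-like protein of myeloid precursors, had 49.7, 28.9 and 20.5 against 3.53, 16.9 and 5.71 CPM. Chil3 missed the threshold over all admitted barcodes (log2 fold change -3.35 ± 0.42, edgeR adjusted p = 0.0575). DESeq2 called it (-3.36, adjusted p = 5.02e-11), as did edgeR after thinning each cell to 1000 UMIs (-2.39, adjusted p = 0.016). Lcn2 and Chil3 were the only 2 of the 7 genes that did not overlap. Without Nlrp3-/- replicate 1, 7 of the 10 secondary granule genes, Ngp, Camp and Ltf included, lay higher and 1 lower, against 27% and 12.1% of all genes. Of Ngp, Camp and Ltf, 2 of 3 lay higher. Mmp9, gelatinase B, had 1541, 1272 and 1885 against 776, 3319 and 2040 CPM, and none of the 9 genes of tertiary granules and proteases lay apart. Without Nlrp3-/- replicate 1, 6 of these 9 lay higher, against 27% of all genes, and their median log2 ratio was 0.77, beside 0.11 for all genes. Among the primary granule genes 1 of 3 at 20 CPM or more lay apart, Ctsc, which activates the serine proteases and had 20.8, 26.1 and 31.5 against 65.9, 41.5 and 70.5 CPM, while Elane stayed at 10.6 to 47.6 CPM in each library. None of these genes passed the edgeR test on all admitted barcodes.

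Of the 33 genes induced by interferon that were tested over all admitted barcodes, none passed. In the neutrophil-led barcodes 1 of 25 at 20 CPM or more was higher and 2 were lower without overlap. Irf7, a transcription factor that drives interferon production, had 126, 78.3 and 66.1 CPM in wild type and 47.0, 39.9 and 43.8 CPM in Nlrp3-/-. Slfn5 had 161, 99.2 and 95.0 against 71.7, 63.0 and 57.1 CPM, and the ubiquitin ligase gene Trim30a had 204, 190 and 216 against 273, 224 and 242 CPM. Without Nlrp3-/- replicate 1, 10 of the 25 genes lay lower and 2 higher, against 12.1% lower and 27% higher of all genes. Ifitm3, a restriction factor at endosomes and the most abundant of the list in wild type, overlapped (1024 to 1983 and 999 to 1177 CPM). Isg15, a ubiquitin-like modifier, had 400, 438 and 485 against 670, 246 and 215 CPM, with Nlrp3-/- replicate 1 again apart. The median log2 fold change of the list was -0.41 over all admitted barcodes, beside 0.03 for all genes tested. It was -0.39 in the same sums for the 20 neutrophil genes that the rule did not use. For the interferon list it was -1.31 without Nlrp3-/- replicate 1, 0.02 without Nlrp3-/- replicate 2, -0.13 without Nlrp3-/- replicate 3, -0.14 after thinning each cell to 1000 UMIs and 0.03 in the neutrophil-led barcodes, so its direction rested on the libraries and barcodes used. In the neutrophil-led barcodes without Nlrp3-/- replicate 1, the median log2 ratio of this list was -0.42, beside 0.11 for all genes. Ifi27l2a, which is not on the list and was named after its values were seen, had 2242, 995 and 507 CPM in wild type and 188, 310 and 190 CPM in Nlrp3-/-. Over all admitted barcodes DESeq2 called it and edgeR did not.

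Of the 24 genes of glycolysis and hypoxia at 20 CPM or more, 5 lay higher in Nlrp3-/- without overlap and none lower, although none of 26 passed the edgeR test. They were the glycolytic enzymes Pkm (675, 759 and 674 against 985, 817 and 888 CPM) and Aldoa (342, 352 and 351 against 521, 386 and 358 CPM), the glucose transporters Slc2a3 and Slc2a1, and the oxygen-regulated factor Hif1a. Slc2a1 had 53.4, 86.0 and 137 CPM in wild type and 207, 141 and 152 CPM in Nlrp3-/-. Hif1a had 114, 154 and 171 against 220, 178 and 219 CPM. Gapdh, the most abundant of the list in wild type, overlapped (992 to 1032 and 939 to 1298 CPM). The median log2 ratio of the list in neutrophil-led barcodes was 0.32, beside 0.05 for all genes. Without Nlrp3-/- replicate 1, of which 40.1% lay in cluster 5, it was 0.09, beside 0.11 for all genes. In that setting 6 of the 24 genes lay higher and 2 lower, against 27% and 12.1% of all genes. Within clusters 1 to 4, none of the 22 genes of the list that could be compared lay apart in all 4. Over all admitted barcodes it was 0.21, beside 0.03.

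The remaining functional lists gave few genes without overlap across all 6 libraries. The formyl peptide, complement and chemokine receptors had 1 of 10, C5ar1, with 347, 440 and 503 CPM in wild type and 555, 548 and 530 CPM in Nlrp3-/-, while Ccrl2 and Cxcr2 overlapped. None of the 7 NADPH oxidase genes, led by Cyba (1164 to 1590 and 1114 to 1461 CPM), none of the 17 adhesion genes, led by the tetraspanin Cd9, and none of 9 pattern recognition genes, led by Cd14, lay apart. The same was true of 14 genes of resident and aged neutrophils, led by Ccl3. Without Nlrp3-/- replicate 1, 5 of these 14 lay lower and none higher, with a median log2 ratio of -0.84, beside 0.11 for all genes. In that setting 3 of the 7 NADPH oxidase genes and 6 of the 17 adhesion genes lay higher and none lower. Of the 9 pattern recognition genes 1 lay lower. Over all genes, 27% lay higher and 12.1% lower. Of the 12 Fc receptor and phagocytosis genes, 2 were higher (Lilr4b and Cd300lf) and 1 lower (Cd300ld), whereas the adaptor Tyrobp overlapped (3412 to 6540 and 3035 to 3792 CPM). Of the eicosanoid genes 1 of 7 was lower (Pla2g7, which degrades platelet-activating factor), of the NF-κB feedback and survival genes 1 of 21 was higher (Xiap), and of the maturation factors 1 of 20 was higher (Rara). Immediate-early and stress genes had 2 of 19 higher (Dusp1 and Ier2) and 1 lower (Dusp2). Without Nlrp3-/- replicate 1, 2 of the immediate-early genes lay higher and 5 lower. Higher and lower counts were then 2 and 1 of the 10 receptors, 4 and 2 of the 12 Fc receptor and phagocytosis genes, and 4 and 2 of the 20 maturation factors. They were 0 and 1 of the 7 eicosanoid genes and 1 and 1 of the 21 NF-κB genes. None of these genes passed the edgeR test.

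Because the libraries differed in cluster mix, levels were also compared within clusters 1 to 4, in which each library had at least 20 barcodes (23 to 860 per cluster and library). Of 2883 genes with at least 20 CPM in each of the 4 clusters, 8 (0.277%) were higher and 16 (0.555%) lower in every Nlrp3-/- than in every wild-type library in all 4 clusters. The 8 higher genes included Xist, Il1b, the nuclear long noncoding RNA Neat1, Sema4a, Sertad3 and Tpm3; the lower ones included Nlrp3, Ddx3y, Eif2s3y, Cmc2, Tpm3-rs7, the linker histone gene Hist1h1c and the ribosomal protein genes Rpl23, Rps13 and Rps27a. The clusters share libraries and animals and were built from the same genes, so these counts carry no test.

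Within clusters Il1b no longer overlapped. In cluster 3, it was 10220, 12700 and 14550 CPM in wild type and 23340, 23180 and 20980 CPM in Nlrp3-/-. In cluster 1 the values were 3380, 2612 and 3405 against 3681, 4723 and 5290 CPM. The ratio of the means was 1.46 to 1.80 over the 4 clusters, and 1.33 to 1.79 after scaling each library by the median ratio of its genes. When the cells were grouped again without Il1b, Il1a, Il1rn, Il1r2, Il1f9 and Retnlg, Il1b lay apart in all 3 groups with at least 20 barcodes in each library; the margin was narrow in the group of 2489 barcodes, with 5030, 3865 and 4737 CPM in wild type and 5114, 5429 and 6479 CPM in Nlrp3-/-. In the group of 1236 barcodes it had 9348, 9090 and 12000 CPM in wild type and 21300, 16630 and 13840 CPM in Nlrp3-/-. Nlrp3-/- replicate 1 was the highest library in 3 of the 4 clusters, but the other knockout libraries also lay above all wild-type libraries.

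Retnlg showed the opposite pattern within the clusters where it was abundant. In cluster 1 it was 51280, 55670 and 50770 CPM in wild type and 37850, 33710 and 30200 CPM in Nlrp3-/-, and in cluster 4 it was 12090, 13530 and 12730 against 7937, 8880 and 6987 CPM. In cluster 3 the groups also lay apart (1463 to 4903 and 497 to 781 CPM), and in cluster 2 they overlapped. In the regrouping without Retnlg, the groups lay apart in the same direction among 2489 and 2091 barcodes but overlapped among 1236 barcodes (4305, 4578 and 2596 against 4775, 4990 and 4226 CPM). Over all admitted barcodes Retnlg had a log2 fold change of -1.25 ± 0.31 (SE; edgeR adjusted p = 0.675; DESeq2 adjusted p = 0.0383). It was -0.74 after thinning each cell to 1000 UMIs and -0.31 in the neutrophil-led barcodes, and edgeR called it in neither. Neat1 was 1388, 1397 and 1693 CPM in cluster 1 of wild type and 1767, 3285 and 2359 CPM in Nlrp3-/-, while Rps27a was 2519, 2300 and 1933 against 1337, 1419 and 1185 CPM.

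**Figure D5:**
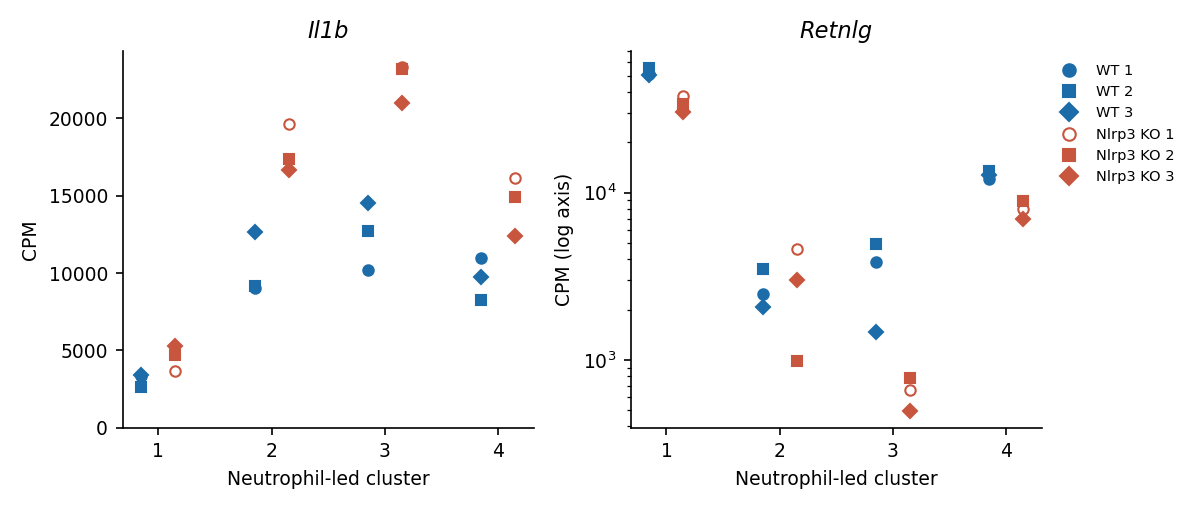
Il1b (left, CPM) and Retnlg (right, CPM, log axis) within neutrophil-led clusters 1 to 4, 1 symbol per library, wild type (WT) in blue and Nlrp3 knockout (KO) in red. All 3 knockout libraries lie above wild type for Il1b in each cluster and below it for Retnlg in clusters 1, 3 and 4.

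The last comparison asked whether the effect of genotype in mature neutrophils differed from that in the granule-rich neutrophils of the same libraries. The sums for mature neutrophils again held all admitted barcodes. By the edgeR interaction test with the library as a block, 0 of 12104 genes passed (0%), 664 had an unadjusted p under 0.05, and DESeq2 called 2 (Ttn and Cdkn1c, named after their values were seen). Il1b had an interaction of 0.83 ± 0.32 on the log2 scale (SE; edgeR adjusted p = 0.865): in granule-rich neutrophils it was 339, 816 and 402 CPM in wild type and 532, 139 and 213 CPM in Nlrp3-/-. With mature neutrophils limited to the neutrophil-led barcodes, a choice made after the clusters were seen, the interaction for Il1b was 1.61 ± 0.31 (SE; edgeR adjusted p = 0.0429). Granule-rich neutrophils were then fitted alone, an addition made after the data were seen, and 59 of 11340 genes passed (0.52%). Among these cells, which the rule did not admit, Retnlg fell by 1.49 ± 0.20 on the log2 scale, from 10580, 10540 and 9341 to 5448, 3740 and 4247 CPM (SE; edgeR adjusted p = 0.0177). The interaction for Retnlg was 0.32 (edgeR adjusted p = 0.931). Chil3 fell by 2.31 ± 0.16 (SE; edgeR adjusted p = 0.000481), Cmc2 by 1.12 (edgeR adjusted p = 0.00773) and Irf7 by 1.23 (edgeR adjusted p = 0.0428) in granule-rich neutrophils. All 4 genes had a log2 fold change of the same sign over all admitted barcodes. There none passed by edgeR, while DESeq2 called Chil3, Cmc2 and Retnlg. After thinning each admitted cell to 1000 UMIs, edgeR called Chil3 and Cmc2. A call in 1 stage only does not show a difference between the stages.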

How the data were processed

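The authors deposited, for each of the 6 libraries, a raw matrix of UMI counts per gene and barcode, before cell calling and without normalization or pooling. The submitters' processing notes name Cell Ranger 2.1.1 and mm10, whereas the matrix headers name version 4. Barcodes were selected by the rule given above, and cells were not treated as replicates: counts were summed per library. Groups were taken from the sample titles.

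Sums were tested with edgeR 4.0.16 (TMM, filterByExpr, quasi-likelihood, Benjamini-Hochberg over all genes, threshold 0.05), in R 4.3.3, and shares with exact permutation tests. CPM values are counts divided by the UMIs of the summed barcodes. Wherever cells were thinned to 1000 UMIs, only barcodes with at least 1000 UMIs were kept. Members were clustered with scanpy 1.11.5 (2000 variable genes, 20 components, 15 neighbours, Leiden resolution 0.8). A cluster counted as other-led when at least 3 of its 50 leading genes belonged to 1 list of another lineage or of primary granules, a threshold set after the clusters were seen. No doublets were removed in the main analysis. Scrublet at 0.8% per 1000 cells marked 160 of 337 barcodes of cluster 7, 90 of 149 of cluster 9, 101 of 131 of cluster 11 and 37 of 59 of cluster 12, but at most 18 in each of clusters 1 to 6.

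Genes were named when called by the genotype test at 20 CPM or more on average without overlap (predicted genes left out), when among the most abundant of a functional list, or when on the inflammasome or IL-1 receptor list. The members and lists were chosen with earlier results of these data known. Positions are from GENCODE (GRCm38), and promoters from RefSeq (GRCm38.p6). In counts simulated from these sums, edgeR recovered 82.0% of 4-fold and 15.0% of 2-fold changes among 10937 genes. The deviations of same-numbered libraries from their group means correlated at 0.0588, -0.480 and 0.0679. With 3 libraries per group these values cannot decide whether the numbers pair the libraries, and the main test used no pairing. Floors for 0 UMIs (3 counts per library) cover counting error only.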

Additional observations from a re-analysis of the deposited data

How the results depend on the processing

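Shares kept their direction and their separation in all 13 alternatives each: the difference in percent of cells lay between -12.19 and -9.305 points and that in percent of neutrophils between -31.1 and -18.04 points when each library was left out. The exact permutation p stayed at 0.1, except for the share of neutrophils without Nlrp3-/- replicate 2 and without Nlrp3-/- replicate 3, where it was 0.2. Applying the rule after thinning to 1000 UMIs gave -6.875 and -19.06 points, at least 1000 UMIs per barcode -8.025 and -18.95 points, and at least 5 receptor gene UMIs -8.094 and -25.21 points. The number of genes called between genotypes was 9; it was 38 by DESeq2, 28 with no filter on low counts, 0 with the replicate block (374 genes at an unadjusted p under 0.05) and 0 to 8 when each library was left out, 0 without Nlrp3-/- replicate 3, 2 without wild-type replicate 3, 4 without wild-type replicate 1 and 5 without wild-type replicate 2. The replicate numbers are not known to pair the libraries. With the replicate block Nlrp3, Xist, Ddx3y and Tpm3-rs7 lost their calls (adjusted p 0.0707 to 0.0908), as they did without Nlrp3-/- replicate 3 (0.0553 to 0.0818). Nlrp3 and Ddx3y also lost theirs without wild-type replicate 3 (0.0913) and Ddx3y without wild-type replicate 1 (0.0533). Under the replicate block their log2 fold changes were -15.32 (Nlrp3), 14.31 (Xist), -11.47 (Ddx3y) and -5.661 (Tpm3-rs7), beside -15.03, 14.29, -11.25 and -5.83 without it. Summing the neutrophil-led barcodes only, chosen after seeing the data, 11 of 5650 genes were called; 5 were shared with the main result, and Cmc2 and Blvrb were among the others. The interaction gave 0 calls without each library; 2 by DESeq2, 82 with no filter and 17 in neutrophil-led barcodes (14 higher, with Il1b, Ccl3, Ccl4 and Acod1 among them). Il1b (main 0.04; -1.026 to 0.5109 when each library was left out) reversed to -0.00811 with no filter, -0.4236 with the replicate block, -0.103 without the highest Scrublet scores, and to -0.07557, -0.06797 and -1.026 without wild-type replicate 1, wild-type replicate 3 and Nlrp3-/- replicate 1. Cxcl2 (main -0.27; -2.006 to 0.2581) reversed to 0.2255, 0.2581 and 0.06883 without wild-type replicate 2 and Nlrp3-/- replicates 2 and 3, and to 0.06114 in neutrophil-led barcodes (0.06434 thinned). DESeq2 called Retnlg (adjusted p = 0.0383). The cause of these changes was not tested. Scaling the libraries by median ratios within clusters gave 8 higher and 20 lower genes in place of 8 and 16.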
